A study of Mus musculus with 4 samples.

Results

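Natural killer (NK) cells were taken from single-cell RNA profiles of castrated mouse prostate tumours as the barcodes that held NK transcripts and none of the T cell receptor complex. The cells were chosen by these measured counts: the gate required at least 1 UMI (unique molecular identifier, 1 counted transcript) of Nkg7 and at least 1 over Ncr1, Klrb1c and Klre1, and 0 UMIs over Cd3e, Cd3d, Cd3g, Cd8a and Cd8b1. It also allowed at most 3 UMIs over C1qa, C1qb, S100a8 and S100a9 and at most 2 over Krt8 and Krt18. Of the 33061 barcodes of 4 mice, 28364 held at least 500 UMIs and 300 genes with at most 20% mitochondrial UMIs. Of these, 124 were NK cells, with 25 and 26 from the mice labelled PSp and 45 and 28 from those labelled PCSp.

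NK cells are innate lymphocytes that kill stressed or transformed cells without a rearranged antigen receptor. Activating receptors signal through adaptors such as TYROBP (DAP12) and FCER1G, and inhibitory receptors that bind MHC class I, in mice mainly the Ly49 family encoded by the Klra genes, restrain them. Killing is carried out by perforin and granzymes, and NK cells also release interferon gamma and the chemokines CCL3, CCL4, CCL5 and XCL1. Mouse tissues hold a circulating form, which carries EOMES and Ly49 receptors, and related tissue-resident cells, group 1 innate lymphoid cells (ILC1), which carry CD49a (Itga1) and CXCR6 and mostly lack EOMES.

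The study compared prostate tumours of PSp mice (whose alleles include PB-Cre, SpopF133V and mTmG) with those of PCSp mice, which carry Chd1L/L in addition, with 2 mice of each. All 4 mice were castrated by surgery at 9 months of age, and whole tumours were collected 1 month later, so every group shares the Cre, the Spop allele, the reporter and the castration, and no uncastrated or tumour-free mouse was compared. PB-Cre is driven by the probasin promoter, which is active in prostate epithelium, so recombination of the alleles is directed to epithelium and not to NK cells. Values of the 4 mice are given below in the order PSp replicates 1 and 2, then PCSp replicates 1 and 2, and each mouse is 1 replicate.

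The gate was checked against marker genes. The markers Ncr1 (NKp46, chr7:4337724-4345164), Klrb1c (NK1.1, chr6:128778485-128789215), Klre1 (chr6:129577905-129585827) and Nkg7 (chr7:43437073-43438249; all GRCm38) chose the cells, so their levels are a description. Levels are in CPM, the UMIs of a gene per 1000000 UMIs of the gate cells of a mouse. Ncr1 stood at 349, 253, 351 and 318 CPM, Klrb1c at 187, 196, 312 and 318 CPM, Klre1 at 333, 374, 458 and 403 CPM and Nkg7 at 1957, 2107, 1657 and 1651 CPM. A UMI of Ncr1 was present in 97 of the 124 cells, of Klrb1c in 83, of Klre1 in 83 and of all 3 in 43. Gzma (granzyme A), a marker the gate did not use, was present in 56 cells, so it did not mark the whole population.

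Cells near the border of the gate were counted. Of the 124 cells, 118 held at least 2 UMIs over Ncr1, Klrb1c and Klre1 and 6 held 1. Just outside, 141 barcodes failed only because of a CD3 or CD8 UMI, 9 of them by 1 UMI, 39 failed only for want of Ncr1, Klrb1c and Klre1, 10 only for want of Nkg7, 10 only by keratin and 2 only by myeloid UMIs. Barcode sequences shared between libraries numbered 11 to 27 for each pair of libraries, and 1 NK cell carried one. Scrublet doublet calls covered 8 NK cells.

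Defining markers of other lineages were at or near 0 with named exceptions. Cd4, Il1rl1 and Il13 (ILC2), Il22 and Il23r (ILC3), Cd79a (B cells), Cxcr2 (neutrophils), Csf1r (macrophages), Mcpt8 and Cpa3 (basophils and mast cells) and Cdh5 (endothelium) were at 0 in each mouse. The T cell list summed to 749, 881, 950.3 and 783 CPM, with 8 of its 15 genes at 0. Most of that sum came from Trbc1 (401, 489, 385 and 442 CPM) and Trbc2 (213, 213, 299.7 and 186 CPM), and Trac was at 0, 5.76, 12.8 and 23.2 CPM. The gamma-delta T list summed to 125, 184, 133 and 93 CPM (2 of 6 genes at 0), the ILC2 list to 234, 184, 269.7 and 263 CPM (4 of 8), almost all of it Rora and Gata3, and the ILC3 list to 62.5, 57.6, 103 and 93 CPM (4 of 7). The B and plasma cell list summed to 115, 97.9, 209.8 and 147 CPM (3 of 8 at 0), the macrophage list to 93.7, 63.3, 154 and 77.5 CPM (3 of 9), the dendritic list, which holds Itgax, to 364, 276, 407 and 465 CPM (5 of 8), and the mast cell and basophil list to 5.2, 0, 8.56 and 0 CPM (5 of 6). In the endothelial list Pecam1 alone was above 0, at 130.1, 121, 128 and 116 CPM, and prostate secretory transcripts summed to 0, 11.5, 0 and 0 CPM (6 of 8 at 0). The epithelial list summed to 312, 489, 381 and 449 CPM with none of its 7 genes at 0, and the neutrophil list to 20.8, 46.1, 42.8 and 46.5 CPM with 2 of 8 at 0. The fibroblast list summed to 41.6, 23, 869 and 504 CPM with none of its 6 genes at 0, and 1 cell in each PCSp mouse held at least 10 UMIs of it. These 2 cells are called fibroblast-rich below.

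NK cells made up a small and similar part of the tumours of both genotypes. Their share of cells within the limits was 0.459% (95% Clopper-Pearson interval 0.297 to 0.677%) and 0.419% (0.274 to 0.613%) in PSp, against 0.545% (0.398 to 0.729%) and 0.331% (0.22 to 0.478%) in PCSp. The 2 PSp values lay between the 2 PCSp values. The means were 0.439 ± 0.0283% in PSp and 0.438 ± 0.151% in PCSp (SD, n = 2 each; exact permutation test over mice, two-sided, p = 1; 2 against 2 cannot give a p below 0.333).

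Against the other lymphocytes the order differed. NK cells were 14.5 and 14.7% of all NK and T gate cells in PSp, against 13.1 and 10.0% in PCSp. Per 100 CD8 T cells (a gate of 402 cells with CD3 and CD8 UMIs and no UMI of Ncr1, Klrb1c or Klre1) there were 35.2 and 46.4 NK cells in PSp, against 32.8 and 20.3 in PCSp. The genotypes did not overlap for either ratio, and both gave p = 0.333 in the exact two-sided permutation test, the smallest that 2 against 2 allows. The intervals cover counting error only. The plot of NK cells by mouse shows these shares beside the split into sub-gates described further on.

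**Figure D1:**
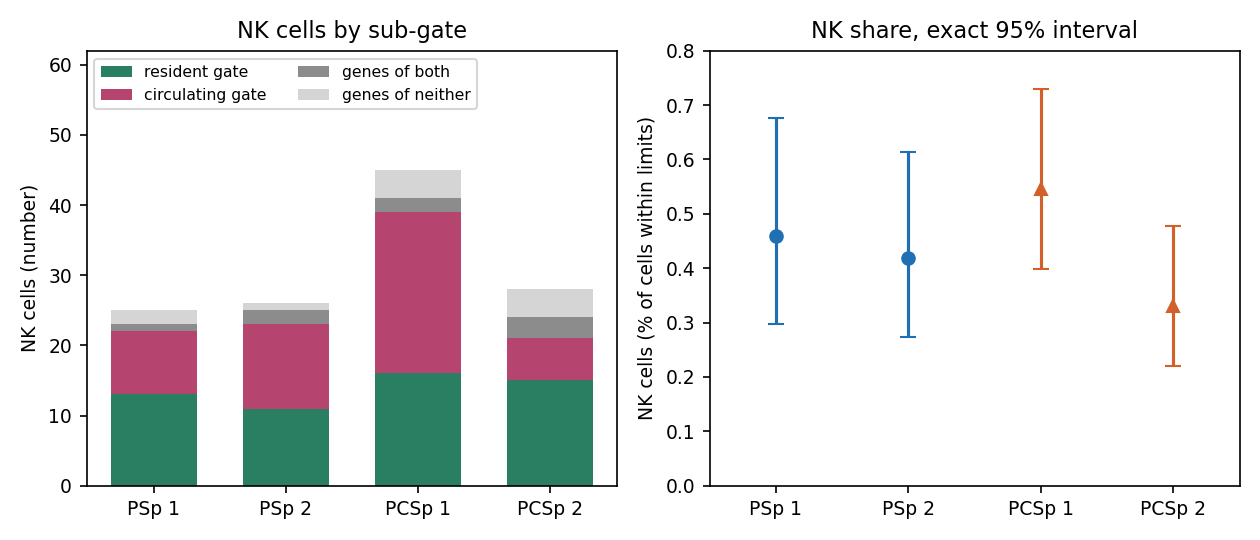
Left, number of NK cells in each mouse (y axis, cells), stacked by sub-gate; right, NK cells as a share of cells within the quality limits (y axis, percent) with the exact 95% interval of each mouse. The 2 PSp shares, 0.459 and 0.419%, sit between the PCSp shares of 0.545 and 0.331%.

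The libraries differed in depth. They held 66874620 to 90839725 UMIs, and the NK cells of a mouse summed to 192131, 173680, 233604 and 129036 UMIs. The median NK cell had 7549 and 6594.5 UMIs in PSp, against 4667 and 3874.5 in PCSp, so the genotypes did not overlap in depth per cell.

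NK cells were first set against CD8 T cells of the same mice, to describe what sets them apart from the other cytotoxic lymphocytes. Counts were summed per mouse and gate and tested with edgeR with the mouse as a block. The genes used by either gate were left out, because the choice of cells fixes them. Of 3587 genes tested, 451 passed an adjusted p of 0.05 (12.6%), 218 higher in NK cells (6.08%) and 233 lower (6.5%). Differences are given as log2 fold change ± standard error. The standard error is the size of the log2 fold change divided by the square root of the F statistic of its test.

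Among activating receptors and adaptors, 8 of 12 tested genes were higher in NK cells and 1 was lower, with a median of 1.85 against -0.02 over all genes tested. Tyrobp, the adaptor of several activating receptors, stood at 1926, 1699, 2068 and 1914 CPM in NK cells and at 32.6, 81, 47.4 and 43.4 CPM in CD8 T cells, a difference of 5.22 ± 0.19 (edgeR adjusted p = 6.8e-12). The lowest NK value was far above the highest T cell value. Fcer1g, the signalling chain that serves NKp46 and CD16, was at 2420.2, 2551, 2106 and 2371 CPM against 196, 162, 113 and 49.3 CPM (4.20 ± 0.21). Klrk1 (NKG2D, a receptor for stress ligands) differed by 2.09 ± 0.22 and Fcgr3 (CD16, the receptor for antibody-coated cells) by 4.13 ± 0.64. Klrc2 and Cd244a, receptors of the NKG2 and SLAM families, were higher by 1.61 and 1.37. The member that was lower was Cd247, the CD3 zeta chain, at 15.6, 34.5, 17.1 and 31 CPM against 60.9, 90, 71.1 and 53.3 CPM (-1.61 ± 0.34).

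Ly49 and NKR-P1 receptors were among the genes of largest difference. Klra4 (chr6:130043731-130067271, GRCm38), an activating Ly49, was at 354, 380.0, 424 and 186 CPM in NK cells and at 0 in the CD8 T cells of every mouse, at least 237-fold higher against a floor of 3 UMIs over the 4 mice. Klra8 (Ly49H, known for recognising cytomegalovirus-infected cells) was at 98.9, 202, 539 and 248 CPM and at least 196-fold higher. Klrb1b (NKR-P1B, an inhibitory receptor) was at 193, 202, 253 and 387 CPM and at least 167-fold higher, and Klra3 was at least 50.8-fold higher. Among inhibitory receptors, 5 of 8 tested were higher in NK cells. They included Klrd1 (CD94), at 916, 772, 668 and 705 CPM against 259, 264, 156 and 140.1 CPM (1.89 ± 0.15), and Klrc1 (NKG2A, 0.99 ± 0.24). Pdcd1 (PD-1) ran the other way. It was at 0 in the NK cells of all 4 mice and at 309, 276, 434 and 432 CPM in CD8 T cells, at least 92-fold lower in NK cells. The Klra genes are near-identical copies that lie side by side, so reads may be split between them and the value of a single Klra gene is uncertain. The CD8 T gate allowed no UMI of Ncr1, Klrb1c or Klre1, which selects against T cells that carry NK receptors. The levels of the other Klra and Klrb1 genes in CD8 T cells are therefore not independent of the gate.

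The remaining genes of largest difference, named by size, included Gzmc, Gm36723, Itgax and Klrb1f on the NK side. Itgax (CD11c) was at 213, 190.0, 201 and 194 CPM against 2.18, 0, 6.97 and 3.95 CPM (5.51 ± 0.36). On the T cell side stood Trgv2, Tcrg-C2, Themis and Cd6, each at 0 in the NK cells of all 4 mice, at least 52.1-fold, 45.3-fold, 36.2-fold and 34.1-fold lower. Trgv2 and Tcrg-C2 belong to the T cell receptor gamma locus, and Themis and Cd6 to T cell signalling. The CD3 clause of the gate selects against T cells. A further pair of receptor genes did not follow this direction: Tcrg-C4 differed by -0.18 ± 0.29 (edgeR adjusted p = 0.79), and Trdv4, named after its values were seen, had 23 UMIs in NK cells and 0 in CD8 T cells, at least 21.2-fold higher in NK cells. Slfn1, Actn2, Gm8369 and BE692007 were also at 0 in NK cells, and Gzmk (granzyme K) was at 5.2, 0, 0 and 7.75 CPM against 163, 138, 201 and 164 CPM (-5.82 ± 0.45).

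Of 14 cytotoxic effector genes tested, 7 were higher in NK cells and Gzmk was lower, with a median of 0.73. Gzma was at 1660.3, 3599, 2324 and 1619.7 CPM in NK cells and at 416, 1104, 970.2 and 466 CPM in CD8 T cells (1.62 ± 0.12). Prf1 (perforin, the pore that lets granzymes into the target cell) was at 213, 149.7, 248 and 232 CPM against 50.1, 39, 51.6 and 57.2 CPM (2.04 ± 0.19). Gzmb (granzyme B, which starts apoptosis in target cells) differed less, by 0.78 ± 0.19 (edgeR adjusted p = 0.011), and PCSp replicate 1, at 604 CPM, lay below all 4 CD8 T values (781, 828, 732 and 795 CPM). Gzmc (granzyme C, chr14:56231441-56234656, GRCm38) was at 5996, 2619.8, 659 and 2379 CPM in NK cells and at 80.5, 3, 6.97 and 17.8 CPM in CD8 T cells, a difference of 6.72 ± 0.22 (edgeR adjusted p = 5e-12). Granzymes C, D, E and F are close copies encoded side by side, so reads may be split between them. Serpinb9 and Serpinb6b, inhibitors that protect cells from their own granzymes, were higher by 1.73 and 2.02, and Ctsw (cathepsin W) by 0.81.

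Cytokines split by member. Xcl1, a chemokine that draws cross-presenting dendritic cells, was at 2144, 2280.1, 2059 and 1232 CPM in NK cells and at 529, 837, 622 and 385 CPM in CD8 T cells (1.67 ± 0.11). Ccl3 and Ccl4 were higher in NK cells by 1.52 and 0.79. Ifng (interferon gamma) was lower, at 98.9, 109, 51.4 and 85.2 CPM against 276, 432, 248 and 249 CPM (-1.87 ± 0.20), and so was Ccl5 (-0.57 ± 0.08). In all, 3 of 7 tested cytokine genes were higher and 2 lower.

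Among receptors for cytokines, 3 of 13 tested genes were higher and 3 lower. Il2rb, the chain shared by the IL-2 and IL-15 receptors on which NK cells depend, was at 1031, 973, 873 and 976 CPM against 302, 267, 314 and 284 CPM (1.66 ± 0.13), and Il12rb2 and Il18r1 were higher by 2.18 and 1.40. Il7r (-1.83 ± 0.26), Il21r and Socs1 were lower. Of 9 homing genes 3 were higher in NK cells, among them Ccr2 (3.06 ± 0.38), and Cxcr3 (-1.32 ± 0.40) and Cxcr6 (-1.19 ± 0.24) were lower.

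Transcription factors differed in 4 of 14 tested genes. Irf8 (chr8:120736358-120756694, GRCm38) was at 562, 605, 556 and 449 CPM in NK cells and at 30.5, 21, 8.36 and 9.87 CPM in CD8 T cells (4.98 ± 0.24, edgeR adjusted p = 5.9e-10). Id2, which restrains E proteins in innate lymphocytes, was higher by 0.72 ± 0.14, Bhlhe40 by 0.56 ± 0.16, and Tox was lower (-1.34 ± 0.20). The T-box factors of both lineages did not pass: Eomes differed by 0.62 ± 0.28 (edgeR adjusted p = 0.19), and Tbx21 (T-bet) by 0.18 ± 0.25 (edgeR adjusted p = 0.74).

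Interferon response genes were lower in NK cells as a group. All 22 tested members lay below CD8 T cells and 17 passed, with a median of -1.19. Ifi27l2a was at 161, 225, 25.7 and 7.75 CPM in NK cells and at 1260.0, 1173, 1015 and 665 CPM in CD8 T cells (-3.48 ± 0.32). Isg15, a ubiquitin-like protein induced by interferon, was lower as well (-0.91 ± 0.22). The receptor genes Ifngr1 (0.15 ± 0.12) and Ifnar1 (-0.38 ± 0.24) did not pass. Of 8 cell cycle genes tested, all lay lower in NK cells and Mki67, Top2a and Hmgb2 passed. Vegfa (vascular endothelial growth factor A) was the hypoxia-list gene that was higher, at 135, 196, 184 and 240.2 CPM against 6.53, 9, 8.36 and 3.95 CPM (4.63 ± 0.31, edgeR adjusted p = 2.2e-08), and Gapdh of the same list was lower.

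**Figure D2:**
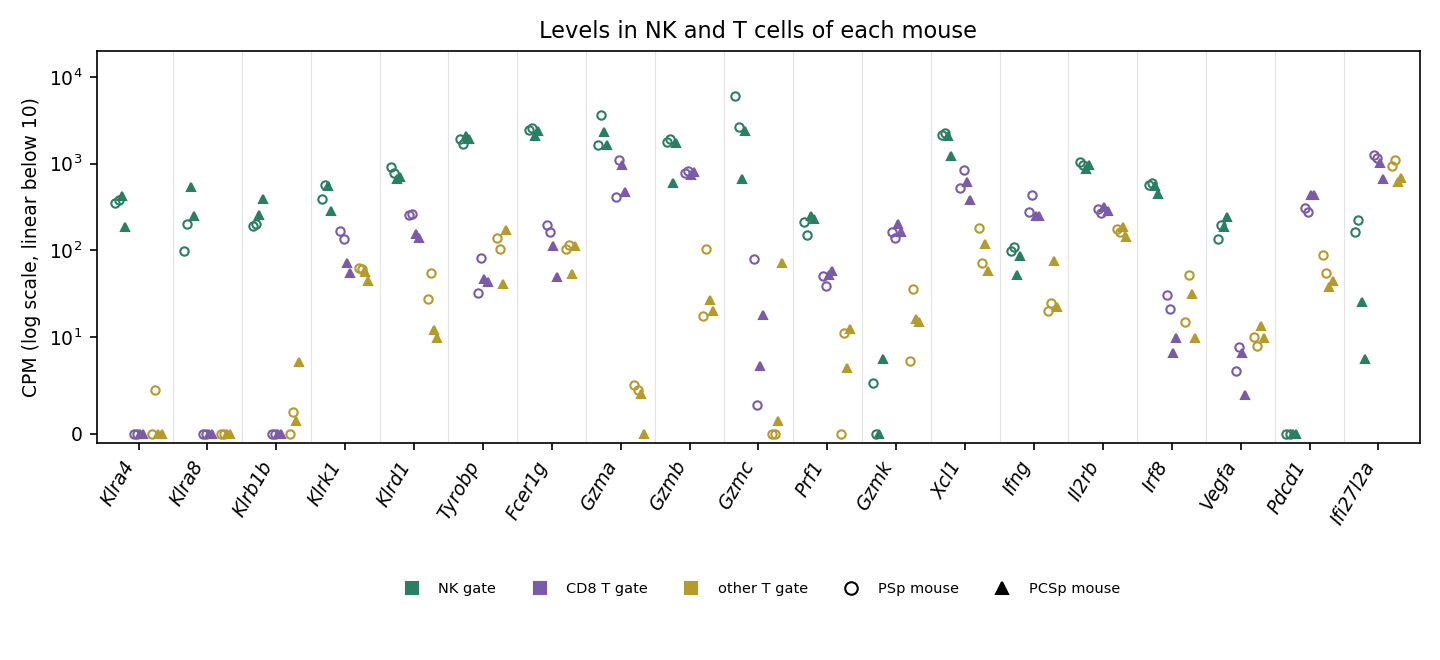
Level in each mouse (y axis, CPM, log scale above 10 and linear below) of 19 genes in the NK gate, the CD8 T gate and the other T gate (CD3 without CD8), with open circles for PSp and triangles for PCSp mice. Klra4, Klra8 and Klrb1b sit at 0 in CD8 T cells and Pdcd1 at 0 in NK cells; Gzmc spans 659 to 5996 CPM in NK cells.

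With cells thinned to 1000 UMIs, 130 genes passed in place of 451, and DESeq2 called 245. Without PSp replicate 1 the count was 296. The 20 genes named by size passed in each of the 9 to 11 alternatives in which they were tested. They were chosen as the largest differences in these same data, and the alternatives reuse the same cells, so this is no independent support. Genes absent from NK or from CD8 T cells, such as Klra4 and Pdcd1, passed the filter on low counts only through the other gate.

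The NK gate held cells of opposite transcript profiles, which were separated by a rule on 8 genes. A resident gate took NK cells with at least 1 UMI over Itga1 (CD49a), Cxcr6, Cd200r1 and Inpp4b and none of S1pr5, Klrg1, Klra4 and Klra8, and a circulating gate took the reverse. The resident gate held 13, 11, 16 and 15 cells and the circulating gate 9, 12, 23 and 6, in all 55 cells (44.4% of the gate, 95% Clopper-Pearson interval 35.4 to 53.5%) and 50 cells (40.3%). Of the rest, 8 cells held genes of both sets and 11 of neither. The resident share was 52% and 42.3% in PSp, against 35.6% and 53.6% in PCSp, and the genotypes overlapped (exact permutation test, two-sided, p = 1).

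Eomes (chr9:118478212-118486132, GRCm38), the T-box factor of circulating NK cells, divided the sub-gates although neither gate used it. A UMI of Eomes was found in 35 of 50 circulating-gate cells and in 4 of 55 resident-gate cells, against 105 of 402 CD8 T cells and 1 of 2974 neutrophils. Median depth was 3732 UMIs in the circulating gate, 7778 in the resident gate and 1699 to 2845 per mouse in neutrophils, so the deeper cells had the lower share. With each cell thinned to 1000 UMIs the counts were 17 of 50 and 2 of 55. By this marker the NK label held for most circulating-gate cells and for few resident-gate cells, and the name NK stands here for the whole gate as the rule defines it.

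The granzymes split the same way at the level of single cells. Gzma without Gzmc was found in 51 cells, Gzmc without Gzma in 39, both in 5 and neither in 29. A Gzmc UMI was found in 39 of 55 resident-gate cells and in 0 of 50 circulating-gate cells, which allows up to 6% of cells with a UMI at this depth and sets no limit on cells expressing the gene. With each cell thinned to 1000 UMIs the counts were 29 of 55 and 0 of 50. In neutrophils 8 of 2974 cells had a Gzmc UMI. Gzma was found in 42 of 50 circulating-gate and 5 of 55 resident-gate cells, and in 10 of 2974 neutrophils. Eomes was seen together with Gzma in 34 cells and together with Gzmc in 3.

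**Figure D3:**
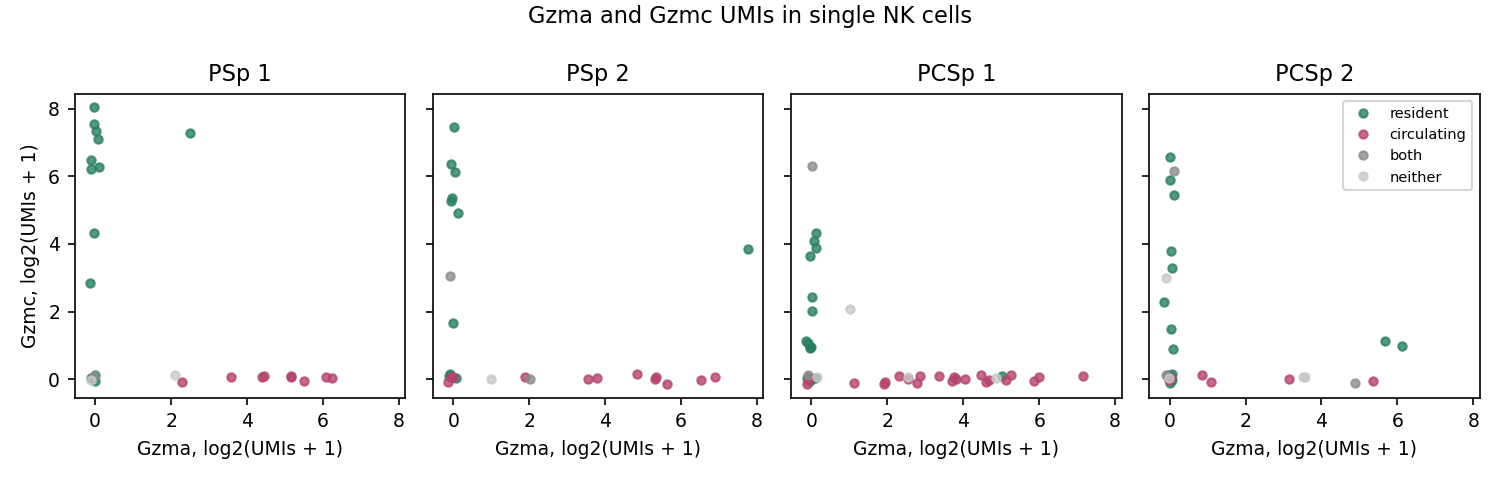
Gzma (x axis) and Gzmc (y axis) in every NK cell of each mouse, both as log2(UMIs + 1), coloured by sub-gate; points are moved slightly at random so that cells at 0 can be seen. Cells lie along one axis or the other in all 4 mice, and 5 of 124 cells hold both.

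Sums per mouse and sub-gate were tested in the 2 mice with at least 10 cells in each sub-gate, PSp replicate 2 and PCSp replicate 1, with the mouse as a block, which leaves 1 residual degree of freedom. The fit took the spread from all genes together (infinite prior degrees of freedom). Its p-values therefore say little of how a single gene varies between mice. The gate genes were left out. Of 1471 genes tested 112 passed (7.61%), 51 higher in the resident gate (3.47%) and 61 lower (4.15%). A fit with all 4 mice, added after the data were seen, called 103 of 1191 genes (8.65%), 51 higher (4.28%) and 52 lower (4.37%).

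Gzmc was at 8439.5, 4621, 691 and 2873 CPM in resident-gate cells of the 4 mice and at 0 in circulating-gate cells of all 4, at least 336-fold higher; it passed the filter on low counts only through the resident gate. Gzmb went the same way, at 2146, 2957, 893 and 2189 CPM against 924, 833, 339 and 293 CPM (1.64 ± 0.24). Gzma went the opposite way, at 36.6, 2398, 307 and 1405 CPM against 6681, 6483, 5016 and 2346 CPM (-2.45 ± 0.17, edgeR adjusted p = 1.5e-41). With all 4 mice in the fit Gzma differed by -2.78 ± 0.54 (edgeR adjusted p = 0.0029). Its resident level rested on few cells: 1 of 13, 1 of 11, 1 of 16 and 2 of 15 resident-gate cells held a UMI, and a single cell of PSp replicate 2 held 232. Prf1 was also lower in the resident gate, at 87.9, 62, 67.2 and 162 CPM against 601, 317, 497 and 293 CPM (-2.63 ± 0.44). Of 12 cytotoxic genes tested, these 4 passed.

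Sequences before the starts of these effector genes are shown because Eomes and T-bet are T-box factors, known to act on Gzma and Prf1 in NK cells. The windows are 120 bases that end at the base before the RefSeq start (GRCm38.p6), written 5′ to 3′ on the gene's strand, with the T-box core AGGTGT or its reverse complement in capitals. Gzma (chr13:113100982-113101101, minus strand) holds the reverse complement 80 bases before the start, and Prf1 (chr10:61297716-61297835, plus strand) holds AGGTGT 24 bases before the start. Gzmc (chr14:56234658-56234777, minus strand) has no match within 250 bases on either strand. The core occurs within 250 bases before the start in 11.8% of 32851 promoters, so a match describes the letters and marks no site.
Gzma: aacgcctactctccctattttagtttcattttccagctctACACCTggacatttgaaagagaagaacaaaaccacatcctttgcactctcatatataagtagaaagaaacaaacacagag
Prf1: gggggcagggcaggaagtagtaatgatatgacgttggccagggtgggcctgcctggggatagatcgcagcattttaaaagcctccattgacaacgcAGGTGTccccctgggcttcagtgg
Gzmc: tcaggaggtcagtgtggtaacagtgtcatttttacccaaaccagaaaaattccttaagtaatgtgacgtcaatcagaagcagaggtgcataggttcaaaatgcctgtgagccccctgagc

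Adhesion and homing genes followed the sub-gates. Itgae (CD103, which binds E-cadherin on epithelium) was at 147, 341, 144 and 187 CPM in the resident gate and at 0 in the circulating gate of each mouse, at least 14.7-fold higher. Like Gzmc, it passed the filter on low counts only through the resident gate. It was found in 24 of 55 resident-gate cells, in 0 of 50 circulating-gate cells and in 46 of 2974 neutrophils. With cells thinned to 1000 UMIs the counts were 9 of 55 and 0 of 50. The limit of 6% again pools the mice and concerns cells with a UMI. Of 7 homing genes tested all lay lower in the resident gate and 4 passed, among them Cxcr4, Ccr2 and Itga4, with a median of -2.05 against -0.00 over all genes tested. Cxcr4, the receptor for CXCL12, was at 29.3, 0, 57.6 and 37.3 CPM against 215, 249.99, 296 and 391 CPM (-3.16 ± 0.57). Itga2 (CD49b), the integrin used to tell circulating NK cells from ILC1, was at 0, 0, 28.8 and 24.9 CPM against 150.4, 199.99, 169 and 48.9 CPM (-3.50 ± 0.87).

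Of the tissue-resident list, 4 of 5 tested genes were higher in the resident gate: Itgae, Tmem176a, Tmem176b and Rgs1. The other tested member, Cd69, lay lower there and did not pass (-1.49 ± 0.58, edgeR adjusted p = 0.10). With all 4 mice in the fit Cd69 differed by -0.13 ± 0.55 (edgeR adjusted p = 0.93). Tmem176a was at 315, 455, 269 and 274 CPM against 43, 16.7, 0 and 0 CPM (5.44 ± 0.73). Rgs1, a regulator of chemokine receptor signalling, was at 2410.2, 3577, 1766 and 2102 CPM against 301, 1199.9, 899 and 684 CPM (1.27 ± 0.20). Sema6d (7.45 ± 1.11), Trf (4.42 ± 1.07) and Gm36723 (4.82 ± 0.82) were higher, and Tcrg-C4 and Klra5 were at 0 in the circulating gate, at least 8.66-fold and 8.13-fold higher in the resident gate. Sema6d was not among the genes tested in the fit of all 4 mice, so its size rests on the 2 mice of the main fit and is uncertain. In the fit of all 4 mice Trf differed by 2.03 ± 0.61 (edgeR adjusted p = 0.045), and it did not pass there without PSp replicate 2 (1.67), nor with DESeq2. Klra7 was the reverse, at 0 in the resident gate and at 365, 400.0, 317 and 147 CPM in the circulating gate, at least 46.5-fold lower. Since Klra4 and Klra8 chose the circulating gate and share reads with their neighbours, Klra5 and Klra7 are not independent of the choice. Tcrg-C4 and Klra5 passed the count filter only through the resident gate, and Klra7 only through the circulating gate.

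Other receptors and factors also divided. Cd226 (DNAM-1, an activating receptor) was at 219.8, 258, 269 and 286 CPM against 0, 16.7, 31.7 and 0 CPM (3.30 ± 0.61), and Klrb1b was higher by 2.30 ± 0.46. Xcl1 was at 2623, 2884, 2294 and 1592 CPM against 752, 1299.9, 921 and 147 CPM (1.23 ± 0.19), whereas Ccl5 (-0.87 ± 0.13) and Ccl3 (-1.49 ± 0.45) were lower in the resident gate. In the fit of all 4 mice Ccl5 did not pass (-0.68 ± 0.27, edgeR adjusted p = 0.15). Ikzf2 (Helios) was higher by 1.61 ± 0.46. Eomes was at 14.7, 0, 48 and 0 CPM against 429.6, 233, 561 and 391 CPM (-3.98 ± 0.54, edgeR adjusted p = 5.5e-11), Klf2, a factor that supports exit from tissue, at 103, 103, 38.4 and 24.9 CPM against 666, 433, 487 and 391 CPM (-2.73 ± 0.43), and Irf8 at 322, 258, 394 and 187 CPM against 1310.3, 1167, 804 and 782 CPM (-1.56 ± 0.29). Eomes differed by -4.49 ± 0.50 with all 4 mice in the fit (edgeR adjusted p = 1.2e-05). Hes1, Myb, Socs3 and Dnajb4 were the remaining genes of largest decrease. Tbx21 (1.62 ± 0.68, edgeR adjusted p = 0.15), Tyrobp (-0.29 ± 0.19, edgeR adjusted p = 0.47) and Fcer1g (0.24 ± 0.17, edgeR adjusted p = 0.56) did not pass, and none of 8 interferon response genes did.

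Immediate early genes, which also respond to tissue dissociation, lay lower in the resident gate in all 15 tested members. Fos, Fosb, Jun, Nr4a1, Ier2, Dusp2 and Nfkbia passed, with a list median of -1.01. In the fit of all 4 mice Fosb (-1.11 ± 0.24, edgeR adjusted p = 0.0066), Nfkbia (-1.07 ± 0.30, edgeR adjusted p = 0.029) and Ier2 (-0.75 ± 0.23, edgeR adjusted p = 0.046) passed and the other 4 did not. Jun was at 161, 82.7, 86.4 and 734 CPM against 215, 267, 561 and 97.7 CPM, so PCSp replicate 2 went against the other 3 mice. The part of dissociation in these values was not tested.

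**Figure D4:**
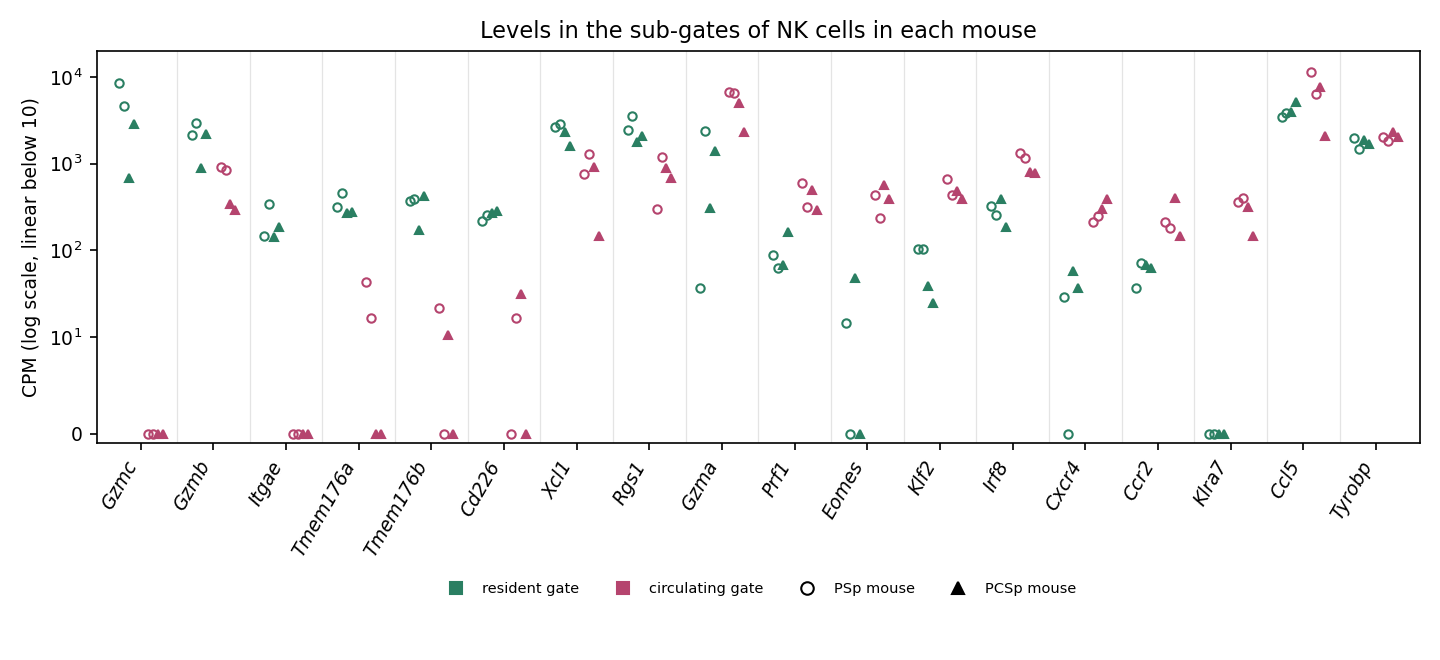
Level in each mouse (y axis, CPM, log scale above 10 and linear below) of 18 genes in resident-gate and circulating-gate NK cells, with open circles for PSp and triangles for PCSp mice. Gzmc and Itgae sit at 0 in circulating-gate cells of all 4 mice and Klra7 at 0 in resident-gate cells; Tyrobp overlaps.

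Limits of the sub-gate comparison come from depth and number. Thinned to 1000 UMIs per cell, 9 genes passed in place of 112, and DESeq2 called 12, with Sema6d, Tmem176a, Eomes and Klf2 among them. Gzmc, Itgae, Tmem176b, Klra7 and Cxcr4 were among the genes that did not pass with DESeq2. Within the fit of all 4 mice the count was 60 without PSp replicate 1 and 59 without PCSp replicate 1.

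The genotypes were then compared within NK cells, to describe what differed when the mice carried Chd1L/L in addition. Of 2675 genes tested, 14 passed (0.523%), 6 higher in PCSp (0.224%) and 8 lower (0.299%), and 209 had an unadjusted p below 0.05. Genotypes did not overlap for 37% of the genes tested. The fit had 2 residual degrees of freedom per gene and 13.4 prior ones taken from all genes together. Its p-values therefore rest largely on a spread shared across genes, and less on how a single gene varies between mice. Chd1 was at 115, 69.1, 158 and 124 CPM in NK cells (0.55 ± 0.35, edgeR adjusted p = 0.82). Recombination is directed to epithelium and not to NK cells, so this level does not check the label. A 3′ tag may also lie outside the part that recombination removes. Spop was at 104, 63.3, 103 and 46.5 CPM (-0.14 ± 0.41) and did not pass.

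The 8 genes that fell in PCSp included 3 of the interferon response list and the chemokine Cxcl10. Cxcl10, the chemokine that attracts CXCR3-bearing lymphocytes, was at 422 and 288 CPM in PSp, against 59.9 and 15.5 CPM in PCSp, a difference of -3.11 ± 0.40 (edgeR adjusted p = 0.00089). Ifi27l2a, an interferon-induced gene, was at 161 and 225 CPM in PSp, against 25.7 and 7.75 CPM in PCSp (-3.37 ± 0.46, edgeR adjusted p = 0.0015). Bst2 (tetherin, which holds budding viruses at the cell surface) was at 281 and 317 CPM in PSp, against 133 and 85.2 CPM in PCSp (-1.47 ± 0.29, edgeR adjusted p = 0.036), and Rnf213, an interferon-induced ubiquitin ligase, at 104 and 167 CPM in PSp, against 21.4 and 46.5 CPM in PCSp (-2.20 ± 0.45, edgeR adjusted p = 0.045). Depth per cell also differed between the genotypes, as given above, and its part in these differences was not tested. Of the 14 interferon response genes tested, 12 lay lower in PCSp and Bst2, Ifi27l2a and Rnf213 passed, with a median of -1.08 against -0.02 over all genes tested. The summed level of the 27 listed genes was 2353, 2746, 1511 and 1356 CPM. In CD8 T cells the same list summed to 4735, 5438, 4041 and 3465 CPM. There too PCSp lay lower without overlap of the genotypes, so a lower sum was not particular to NK cells. Members that did not pass include Isg15 at 255, 184, 116 and 271 CPM, where PCSp replicate 2 was the highest mouse, and Ifi203 at 333, 345, 235 and 287 CPM.

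These counts came from few cells. The highest cell held 65 of 81 Cxcl10 UMIs in PSp replicate 1, and the highest cell of Bst2 held 25 of 54. In PSp replicate 2 the highest cell held 37 of 50 Cxcl10 UMIs and 17 of 55 Bst2 UMIs. For Ifi27l2a the highest cell held 19 of 31 and 15 of 39 UMIs in PSp. A Bst2 UMI was found in 13, 15, 16 and 8 cells.

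Sequences before the starts of Bst2 and Cxcl10 are shown because both genes fell and both hold the interferon-stimulated response element in the form GAAA, any 2 bases, GAAA, in capitals (RefSeq, GRCm38.p6, 5′ to 3′ on the gene's strand, ending at the base before the start). Bst2 (chr8:71537473-71537632, minus strand) holds 2 overlapping matches 130 and 124 bases before the start, and Cxcl10 (chr5:92348890-92349129, minus strand) holds 1 at 213 bases. Both strands of the 250 bases before the start were searched, and 2.98% of 32851 promoters hold a match. Rnf213 and Dapk2 have none in that window, 1 of 2 listed starts of Spp1 has a match 157 bases before it, and Ifi27l2a was not matched to a promoter. A match is a description and says nothing of what acts on the gene.
Bst2: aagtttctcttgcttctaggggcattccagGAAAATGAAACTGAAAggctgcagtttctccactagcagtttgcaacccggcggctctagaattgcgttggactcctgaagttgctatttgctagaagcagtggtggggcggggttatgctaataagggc
Cxcl10: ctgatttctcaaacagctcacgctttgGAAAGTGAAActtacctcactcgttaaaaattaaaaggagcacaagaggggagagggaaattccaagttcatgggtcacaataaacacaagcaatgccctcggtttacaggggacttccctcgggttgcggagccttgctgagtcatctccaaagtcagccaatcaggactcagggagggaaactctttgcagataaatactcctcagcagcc

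The other decreases were Spp1, Dapk2, mt-Nd3 and mt-Co3. Spp1 (osteopontin, a secreted matrix protein that immune cells also make) was at 390.4 and 357 CPM in PSp, against 59.9 and 116 CPM in PCSp (-2.27 ± 0.32, edgeR adjusted p = 0.0019). An Spp1 UMI was found in only 6, 6, 3 and 3 cells. The highest cell held 39 of 75, 22 of 62, 8 of 14 and 11 of 15 UMIs. Dapk2, a calmodulin-regulated kinase linked to cell death, was at 104 and 121 CPM in PSp, against 25.7 and 15.5 CPM in PCSp (-2.40 ± 0.47, edgeR adjusted p = 0.034), with a UMI in 10, 10, 6 and 2 cells. The mitochondrial genes mt-Nd3 (a complex I subunit) and mt-Co3 (a complex IV subunit) were at 635, 714, 377 and 248 CPM (-1.15 ± 0.22) and at 8406, 7640.5, 5505 and 5169 CPM (-0.67 ± 0.14). Of 13 mitochondrially encoded genes, 12 lay lower in PCSp and these 2 passed, with a median of -0.49 and a summed level of 46073, 39089, 33060.2 and 30805 CPM.

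One of these transcripts, mt-Co3, was also measured in other cells of the same tumours. Macrophages (C1qa and C1qb gate) stood at 7124, 9284, 5918 and 5118 CPM, epithelium at 9845, 12402, 8347 and 7225 CPM and T cells without CD8 at 9378, 9723, 6642 and 5841 CPM. In each of these 3 gates the genotypes did not overlap, with PCSp lower, and this was not tested. In CD8 T cells, with the 4 mice in the same order, it was at 6209, 8119.9, 6022 and 5109 CPM, where the genotypes did not overlap either, and in neutrophils at 2547, 4277, 3110.1 and 2249.9 CPM, where they did. Lack of overlap was counted over all genes in NK cells only, where it held for 37% of those tested. How common it is in the other gates was not counted. The summed level of the 13 mitochondrially encoded genes did overlap between genotypes in CD8 T cells (31957, 40126, 33692 and 28459.6 CPM) and in the circulating gate (35229, 37781, 32243 and 36356 CPM). Ifi27l2a was at 631, 573, 255 and 170.1 CPM in epithelium, and Bst2 at 824, 869, 1129.7 and 968 CPM in macrophages, where PCSp was not below PSp.

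Of the 6 genes that were higher in PCSp, Mgp, Dcn, Gsn and Igfbp5 are known from stromal cells, and the fibroblast list summed to 41.6, 23, 869 and 504 CPM. Mgp (matrix Gla protein) was at 15.6 and 11.5 CPM in PSp, against 492 and 349 CPM in PCSp (4.82 ± 0.42, edgeR adjusted p = 1.5e-05) and Dcn (decorin, a collagen-binding proteoglycan) at 36.4 and 17.3 CPM in PSp, against 753 and 287 CPM in PCSp (4.19 ± 0.49, edgeR adjusted p = 0.00043). Gsn (gelsolin) was at 26 and 11.5 CPM in PSp, against 676 and 77.5 CPM in PCSp (4.29 ± 0.80, edgeR adjusted p = 0.027), and Igfbp5 at 10.4 and 23 CPM in PSp, against 188 and 77.5 CPM in PCSp (log2 interval 1.92 to 4.08, edgeR adjusted p = 0.027). Single cells held most of the counts: 101 of 115 Mgp UMIs in PCSp replicate 1 and 38 of 45 in replicate 2, and 165 of 176 and 29 of 37 for Dcn. Without the 2 fibroblast-rich cells Dcn stood at 50 and 65.8 CPM in the PCSp mice, and Dcn, Gsn and Igfbp5 fell below the count filter. Mgp then differed by 2.02 (edgeR adjusted p = 0.593). Stmn1 (stathmin, a microtubule regulator high in dividing cells) was at 36.4 and 23 CPM in PSp, against 257 and 101 CPM in PCSp (2.56 ± 0.49, edgeR adjusted p = 0.029), with 44 of 60 and 10 of 13 UMIs in 1 cell of each PCSp mouse. Gm26740, named after its values were seen, had 15 and 12 UMIs in PCSp and 0 in both PSp mice, at least 9.08-fold higher, and in CD8 T cells it was at 6.53, 6, 100.4 and 142 CPM (4.15 ± 0.42, edgeR adjusted p = 0.0036).

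**Figure D5:**
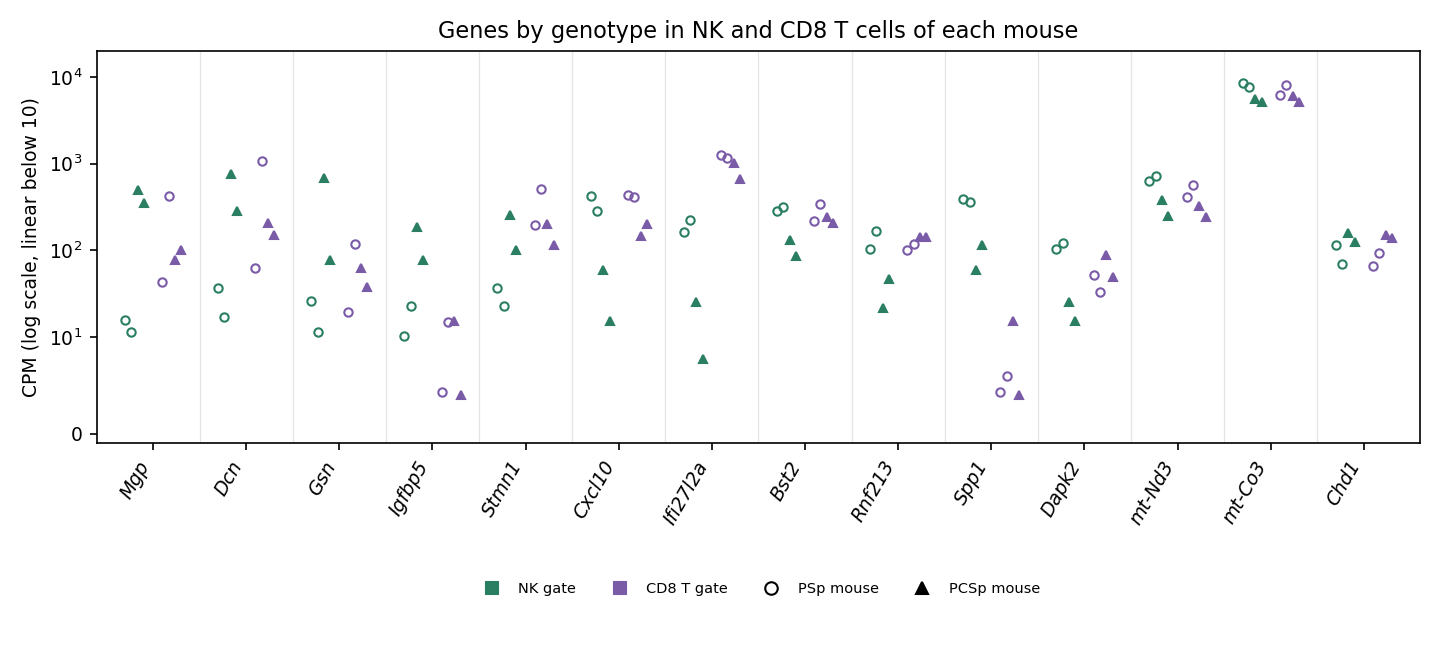
Level in each mouse (y axis, CPM, log scale above 10 and linear below) of 13 genes that passed between genotypes in NK cells, and of Chd1, in NK and CD8 T cells; open circles are PSp and triangles PCSp mice. In NK cells Cxcl10 is at 422 and 288 CPM in PSp and at 59.9 and 15.5 CPM in PCSp mice; Mgp and Dcn lie higher in PCSp NK cells, where the fibroblast-rich cells hold most counts.

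These calls depended on single mice and cells. Without the 2 fibroblast-rich cells 3 genes passed: Cxcl10, Ifi27l2a and Spp1. The count was 29 without PSp replicate 1, 6 without PCSp replicate 1 and 86 without PCSp replicate 2. Without PCSp replicate 1 the differences of Ifi27l2a (-4.57), Spp1 (-1.75), Bst2 (-1.87), Rnf213 (-1.58), Dapk2 (-2.86), mt-Nd3 (-1.51), Gsn (1.92), Igfbp5 (2.12) and Stmn1 (1.65) no longer passed. Without PSp replicate 2, Bst2 (-1.41), Rnf213 (-1.84), Dapk2 (-2.32), mt-Nd3 (-1.09), mt-Co3 (-0.76), Gsn (3.81) and Stmn1 (2.26) did not pass, and without PSp replicate 1 Dapk2 (-2.54) and mt-Co3 (-0.62) did not. Gm26740 passed in 2 of the 10 alternatives in which it was tested, and not without PSp replicate 1, without PSp replicate 2, without PCSp replicate 2 or without the fibroblast-rich cells. Cxcl10 passed in 13 of 13 alternatives in which it was tested, Dcn in 12 of 12 (it fell under the filter without the fibroblast-rich cells), Spp1 in 13 of 14 and Ifi27l2a in 12 of 14. Mgp passed in 12 of 13, Igfbp5 in 8 of 12, Gsn in 6 of 12 and Stmn1 in 6 of 13. Bst2 and mt-Nd3 passed in 7 of 14, mt-Co3 in 6, Rnf213 in 5 and Dapk2 in 3. None of these last genes passed with at least 2 UMIs over Ncr1, Klrb1c and Klre1, or with no Trac UMI. In resident-gate cells only, Ifi27l2a, Spp1 and Bst2 passed, and Rnf213, Dapk2, mt-Nd3 and mt-Co3 did not. Resident-gate cells held 136501 of 192131 NK UMIs in PSp replicate 1 and 96731 of 173680 in PSp replicate 2. Resident-gate cells held 104186 of 233604 NK UMIs in PCSp replicate 1 and 80402 of 129036 in PCSp replicate 2. Apart from the fit of resident-gate cells only, the part of this make-up in the genotype differences was not tested.

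The receptors and effectors of NK cells held no gene that passed between genotypes. Of 12 activating receptors and adaptors 8 lay higher and 4 lower in PCSp (median 0.07), of 9 inhibitory receptors 3 and 6 (-0.15), and of 14 cytotoxic effectors 5 and 9 (-0.17). Gzmc was at 5996, 2619.8, 659 and 2379 CPM (-1.63 ± 0.42, edgeR adjusted p = 0.17), so PCSp replicate 1 was well below the other 3 mice and the genotypes did not overlap. Klra8 was at 98.9, 202, 539 and 248 CPM (1.38 ± 0.36, edgeR adjusted p = 0.17), with the genotypes apart as well. Lag3, an inhibitory receptor, was at 72.9, 104, 38.5 and 15.5 CPM (-1.62 ± 0.52, edgeR adjusted p = 0.42). Transcription factors (13 tested, median 0.19), homing genes (8, median 0.26), cytokine receptors (13, median -0.06) and cytokines (6, median -0.15) had no gene that passed, nor had 13 MHC class I genes (12 lower, median -0.26), 15 immediate early genes (11 higher, median 0.32) or 11 hypoxia genes (9 lower, median -0.23).

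Cholesterol biosynthesis genes, which the study's title names, were barely measurable in NK cells. Of 20 biosynthesis genes 1 passed the count filter, Ebp, at 78.1, 57.6, 68.5 and 54.2 CPM (-0.20 ± 0.43, edgeR adjusted p = 0.98). The summed level of the 20 genes was 338, 213, 317 and 248 CPM. Srebf2, the factor that drives the pathway, was at 46.8, 28.8, 34.2 and 38.7 CPM. In both Ebp and Srebf2 the genotypes overlapped.

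Whether the genotype effect differed from that in CD8 T cells was tested as an interaction of gate and genotype. Of 4447 genes tested 9 passed (0.202%), 6 higher (0.135%) and 3 lower (0.0675%), and they are listed further on with their values. Ifi27l2a was among them: in CD8 T cells it was at 1260.0, 1173, 1015 and 665 CPM (-0.57 ± 0.17, edgeR adjusted p = 0.41), and the interaction was -2.92 ± 0.48 (edgeR adjusted p = 0.0055). Rnf213 was at 102, 119.98, 141 and 144 CPM in CD8 T cells (0.32 ± 0.20). Cxcl10 was lower in CD8 T cells of PCSp mice too, at 439.6, 414, 145 and 203 CPM (-1.35 ± 0.19, edgeR adjusted p = 0.032), and its interaction did not pass (-1.73 ± 0.47, edgeR adjusted p = 0.24). In CD8 T cells 3 of 5293 genes passed (0.0567%), Gm26740 higher (0.0189%), and Cxcl10 and Klra5 lower (0.0378%). Bst2 was at 218, 339, 245 and 207 CPM (-0.32 ± 0.22), and mt-Nd3 at 416, 573, 329 and 241 CPM (-0.82 ± 0.21), in CD8 T cells. Both gates come from the same 4 mice.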

How the data were processed

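Single-cell RNA of 4 whole prostate tumours was measured with 10x Genomics 3′ libraries, per the labels. The deposited matrices hold raw UMI counts per gene and barcode, with no normalization. Per the submitters' processing notes the authors used Cell Ranger 6.1.2 and mm10; 32285 genes are listed. The members, the gates and the 31 gene lists were chosen with earlier results of these data known. Counts of gate cells were summed per mouse and tested with edgeR 4.0.16 (quasi-likelihood, TMM, filterByExpr, Benjamini-Hochberg, two-sided) in R 4.3.3, and tested on simulated data; DESeq2 1.42.0 was an alternative. CPM were computed from the sums without TMM factors. The genotype fits hold no block, and the 2 fits within mice hold the mouse, since both gates come from the same animal. Replicates are mice, and the 2 of a genotype measure the spread between mice. The edgeR fits take much of the spread of a single gene from the other genes. Shares have Clopper-Pearson intervals (scipy 1.17.1). Scrublet in scanpy 1.11.5 gave doublet calls (0.8% per 1000 barcodes); no cell was removed for them in the main values. Named genes were those of the alleles, then up to 10 in each direction of largest change among called genes whose mean level reached 50 CPM (for genotype also without overlap), the 5 genes of smallest p for the interaction, and, from each list, the 3 members of highest level and any that passed. A fold against a group at 0 uses a floor of 3 UMIs over its mice. Other T cells, neutrophils (at least 20 UMIs of S100a8 and S100a9), macrophages and epithelium (at least 10 UMIs of C1qa and C1qb, or Krt8 and Krt18) served as comparison. Some genes and 1 allele are not reported here. Gene positions are from GENCODE and promoters from RefSeq. Alternatives were RLE scaling, no count filter, DESeq2, each mouse left out, stricter gates, no doublet calls, equal cells and thinning; those on fibroblast-rich cells, resident-gate cells, shared barcodes and all 4 mice for the sub-gates were added after the data were seen.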

Additional observations from a re-analysis of the deposited data

Results flagged for a closer look

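For 9 genes the difference between PCSp and PSp mice was not the same in NK and CD8 T cells by the edgeR interaction test. It is given as log2 with the standard error defined above. Those with the more positive difference in NK cells than in CD8 T cells were Mgp (6.13 ± 0.61, edgeR adjusted p = 1.63e-05), Dcn (5.50 ± 0.68, edgeR adjusted p = 0.000273), Gsn (4.39 ± 0.79, edgeR adjusted p = 0.0165) and Stmn1 (3.56 ± 0.51, edgeR adjusted p = 0.00103). In CD8 T cells Dcn was at 63.1, 1062, 205 and 152 CPM and Mgp at 43.5, 426, 78.1 and 101 CPM, highest in PSp replicate 2. The alternative without fibroblast-rich cells also left out CD8 T cells that met the same limit (0, 1, 3 and 1 in the 4 mice), and in PSp replicate 2 a single CD8 T cell held 344 of 354 Dcn UMIs. Under it the interaction of Mgp was 1.07 and of Dcn 0.57, and neither passed. Without PSp replicate 2 that of Dcn was 2.21 and of Gsn 2.29, and without PCSp replicate 1 that of Gsn was 2.65, again not past the threshold.

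Those with the more negative difference in NK cells than in CD8 T cells were Ifi27l2a (-2.92 ± 0.48, edgeR adjusted p = 0.00552), Dapk2 (-3.18 ± 0.59, edgeR adjusted p = 0.0195) and Rnf213 (-2.51 ± 0.51, edgeR adjusted p = 0.0398). Dapk2 was at 52.2, 33, 89.2 and 49.3 CPM in CD8 T cells. Without PCSp replicate 1 Dapk2 (-3.05) and Rnf213 (-1.92) no longer passed, nor did Rnf213 without PSp replicate 2 (-2.29).

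Gzmf (granzyme F, chr14:56205263-56211417, GRCm38) and Pclaf rest on single cells. Gzmf (7.83 ± 1.03, edgeR adjusted p = 0.00057) was at 98.9, 0, 0 and 496 CPM in NK cells, where 1 cell held all 19 UMIs of PSp replicate 1 and 1 cell all 64 of PCSp replicate 2, and at 242, 0, 2.79 and 0 CPM in CD8 T cells. Pclaf, a replication factor (edgeR adjusted p = 0.0195), was at 0, 0, 119.9 and 23.2 CPM in NK cells, and 1 cell held 26 of 28 UMIs of PCSp replicate 1. The interaction of Gzmf did not pass without PSp replicate 1 (6.52), and Pclaf did not pass without PSp replicate 2 or without PCSp replicate 1. In all, 28 genes passed without PSp replicate 1 and 41 without PCSp replicate 2.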

How the results depend on the processing

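No paired analysis was possible because the labels give no number that ties a PSp mouse to a PCSp mouse. Between genotypes in NK cells the count of 14 genes became 48 with no filter on low counts, 9 with DESeq2, 6 with at least 2 UMIs over Ncr1, Klrb1c and Klre1, 6 with no Trac UMI, 7 without doublet calls, 9 with the same number of cells per mouse, 3 without fibroblast-rich cells, 8 without shared barcodes and 6 to 86 with each mouse left out. For NK against CD8 T cells 451 became 685 with no filter, 245 with DESeq2, 130 after thinning and 296 to 394 with each mouse left out; without the replicate block it was 457. The interaction count of 9 became 36 with no filter and 11 to 41 with each mouse left out. For resident-gate against circulating-gate cells 112 became 12 with DESeq2, 9 after thinning and 59 without the replicate block, and, in the fit of 4 mice (103), 59 to 134 with each mouse left out (60 without PSp replicate 1); leaving a mouse out of the fit of 2 mice leaves no residual degrees of freedom. The difference in NK share was -0.00064 percentage points, -0.108 to 0.106 with each mouse left out, and -3.01 as a share of NK and T gate cells. The sign turned for Spop (main value -0.14, with each mouse left out -0.92 to 0.23; 0.23 without PSp replicate 1, 0.16 without PCSp replicate 2, 0.011 without shared barcodes) and the interaction of Gzmf (-1.83 without PCSp replicate 2); none of these values passed. The cause of these shifts was not tested, apart from the smaller number of cells or counts that thinning and the stricter gates leave. Counted over called genes chosen by size (for genotype and the interaction all called genes) and every alternative in which each was tested, 202 of 202 tests passed for NK against CD8 T cells (20 genes), 112 of 183 for genotype (14), 50 of 62 for the interaction (9) and 132 of 150 for the sub-gates (20). The genes counted were chosen from these same data, and the alternatives reuse the same cells, so these tallies are no independent support. With 124 cells, genes of low level could not be tested.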

Other observations

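Genes outside the lists also divided the sub-gates of NK cells, and those named here were chosen after their values were seen. S100a6 was at 2300.3, 2419, 2102 and 1990.0 CPM in resident-gate cells and at 365, 367, 339 and 391 CPM in circulating-gate cells (2.67 ± 0.24, edgeR adjusted p = 1.9e-24), and S100a4 at 1333, 1085, 605 and 585 CPM against 43, 83.3, 31.7 and 0 CPM (3.90 ± 0.43, edgeR adjusted p = 2e-16). Both encode calcium-binding proteins. In the fit of all 4 mice S100a6 differed by 2.64 ± 0.16 (edgeR adjusted p = 3.6e-09) and S100a4 by 4.28 ± 0.32 (edgeR adjusted p = 5.8e-08). In both genes every resident-gate value lay above every circulating-gate value.

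Rora, a nuclear receptor known from innate lymphoid cells, was at 205, 217, 211 and 224 CPM in the resident gate and 85.9, 16.7, 21.2 and 48.9 CPM in the circulating gate (3.37 ± 0.67, edgeR adjusted p = 2.7e-05). Pecam1 (CD31) was at 168, 207, 211 and 124 CPM against 43, 0, 21.2 and 147 CPM (3.90 ± 0.74, edgeR adjusted p = 8.4e-06), with PCSp replicate 2 against the other 3 mice, while the other 4 endothelial markers, Cdh5, Vwf, Kdr and Emcn, were at 0 in NK cells of all 4 mice. With all 4 mice in the fit Rora differed by 2.48 ± 0.49 (edgeR adjusted p = 0.0029) and Pecam1 by 2.47 ± 0.59 (edgeR adjusted p = 0.012). Granzymes D and E were at 454, 41.4, 0 and 162 CPM and at 139, 10.3, 0 and 224 CPM in the resident gate and at 0 in the circulating gate of each mouse.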
